A study of Homo sapiens with 6 samples.

Results

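The genes described here are 49 markers of gastric and intestinal differentiation, chosen by symbol: mucins and trefoil factors, secreted products, surface and cytoskeletal proteins, and the regulators of the gut lineages. All 49 were found among the 29744 gene symbols of the count table. By their usual site of expression 13 were classed as gastric, 17 as intestinal and 19 as shared by several epithelia. The study set MKN45, an established human gastric cancer line labelled as sensitive, beside 2 derivatives. HER2R is labelled resistant to HER2-TCB and CEAR resistant to CEACAM5-TCB, which are T cell bispecific antibodies directed at a tumour antigen. The labels give MKN45-HER2 as the source of HER2R and do not say how that line was made, so HER2R may differ from MKN45 by more than resistance. Each line had 2 libraries of total RNA, numbered 1 and 2, from cells kept in DMEM/F-12 with serum, with no treatment listed. Each derivative is 1 line, and whether it is a clone is not given. The labels do not state whether a line's libraries were grown separately, so each p-value reflects the spread among these 6 libraries alone, and that spread may be technical.

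Gastric epithelium is built from surface mucous cells, which secrete MUC5AC and TFF1, and gland mucous cells, which secrete MUC6 and TFF2. SOX2 and GATA factors act in the stomach, whereas CDX factors set the intestinal programme together with HNF4 factors, which drive absorptive genes. Gastric cancers can express both programmes, as the stomach does in intestinal metaplasia.

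Library totals ran from 39657353 to 57964246 counts, and 1 count was worth 0.0177 to 0.0255 CPM, the level scaled by depth. Of the 29744 symbols 14958 passed a filter on low counts and were tested, among them 38 of the 49 members. In a check of the labels the targeted antigen CEACAM5 had 1007 and 2441 CPM (MKN45), 1036 and 2289 (HER2R) and 2.34 and 15.9 (CEAR). ERBB2, the gene of HER2, had 103 and 126 CPM (MKN45), 88.2 and 78.8 (HER2R) and 75.6 and 109 (CEAR). It was not called against MKN45 (edgeR adjusted p = 0.203 in HER2R and 0.429 in CEAR). Each of the 18 epithelial genes of a marker list had counts in some library. Every MKN45 and HER2R library had 1 of the 18 at 0. The summed level of 9 stromal markers was 1.05 to 1.895 CPM in MKN45, 3.75 to 7.92 in HER2R and 1.17 to 1.83 in CEAR, with 3 of the 9 at 0 in all libraries. The summed level of 11 immune markers was 5.07 to 15.3 CPM in MKN45, 3.29 to 3.57 in HER2R and 2.795 to 5.66 in CEAR, with 5 of the 11 at 0. Their part in the results was not tested. In bulk RNA, fewer cells of a type and less RNA per cell cannot be told apart.

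The lines carried markers of both programmes. Per kilobase of exon, the scale on which genes can be compared, AGR2, LYZ and TSPAN8 had the highest mean levels of the members in each of the 3 lines (1162, 577 and 282 CPM per kilobase in MKN45). Next in MKN45 came the intestinal galectin LGALS4 (170.3), the gastric trefoil peptide TFF1 (166.5) and the intestinal lectin REG4 (166.5), whose libraries overlapped. Several markers of mature cells were at or near 0. The gastrokine GKN1 and the intestinal factors CDX1 and ISX had no count in any library. GKN2 had 1, 0 and 1 counts in MKN45, HER2R and CEAR, and the pepsinogen gene PGC had 3, 1 and 3. The intestinal fatty acid carrier FABP2 had 1 count in all. Of the gastric markers MKN45 thus held TFF1, MUC5AC, CTSE, VSIG1, ANXA10 and SOX2 above 1 CPM in both libraries, and not GKN1, GKN2, PGC or MUC6.

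**Figure D1:**
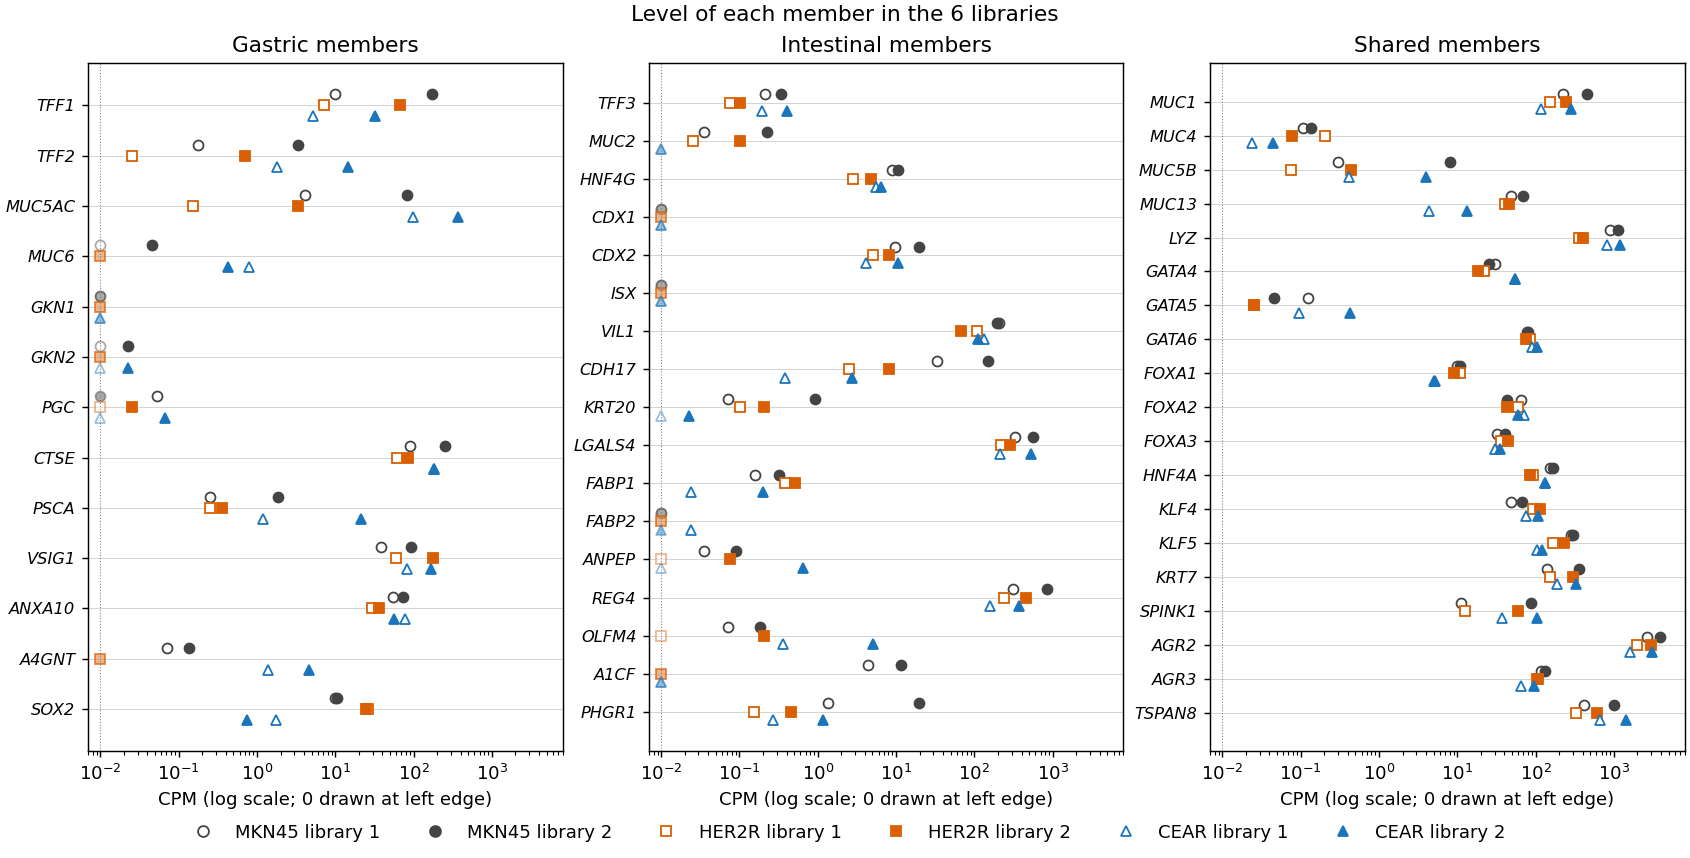
Level of each member in CPM (log scale) in the 6 libraries, by class, with open symbols for library 1 and filled symbols for library 2; values of 0 are drawn at the left edge. SOX2 is highest in HER2R and lowest in CEAR, and A1CF has counts in MKN45 alone.

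Many members differed between the libraries of 1 line, in the same direction in all lines. Of the 30 members with over 3 counts in every library, 21 were higher in library 2 than in library 1 in all 3 lines, and 3 were lower (GATA4, FOXA2 and VIL1). The same share over all tested genes was not computed. With the library number as a term of the edgeR fit, 31 of 38 tested members had a positive log2 difference. Of all 14958 tested genes 7790 did. In that fit 20 members were called higher in number 2 and 1 lower, where 16.7% of all tested genes were called (9.33% higher and 7.34% lower). The members called higher were 6 gastric, 7 intestinal and 7 shared ones. TFF1 had 10.1 and 173.5 CPM (MKN45), 7.235 and 66.7 (HER2R) and 5.155 and 32.1 (CEAR), or 17.2-, 9.215- and 6.22-fold more in library 2. Its log2 difference by number was 3.37 (SE 0.244, edgeR adjusted p = 0.000346). MUC5AC had 20.0-, 21.7- and 3.67-fold more. FOXA2, a pioneer factor of gut endoderm, was the member lower in number 2 (log2 difference -0.44, edgeR adjusted p = 0.0175). The labels do not say what the number stands for. Because same-numbered libraries moved together, a second fit holds the number as a blocking factor (the replicate block), and its values are given where they change the call of a member. Unless the block is named, a call is from the fit without it.

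**Figure D2:**
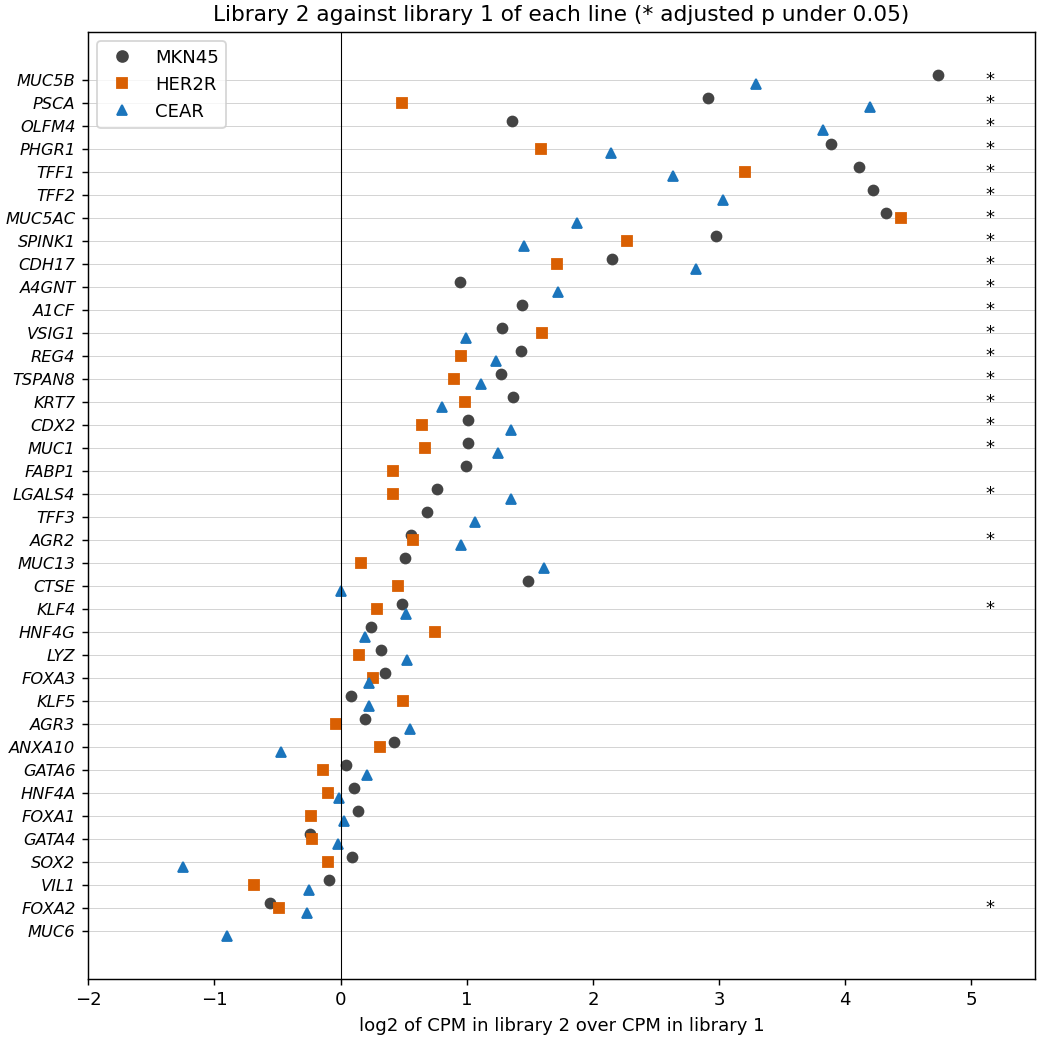
Log2 of the CPM in library 2 over that in library 1 of each line for the tested members, drawn where both libraries had over 3 counts, with an asterisk where the library number was called in edgeR. TFF1 and MUC5AC lie far above 0 in all 3 lines, and FOXA2 lies below 0.

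Against MKN45, HER2R had 1 member called higher and 6 lower of 38 tested, where 9.74% of all tested genes were called (4.89% higher and 4.85% lower). SOX2 rose, and LYZ, ANXA10, VIL1, HNF4A, HNF4G and A1CF fell. With the block 3 rose and 20 fell, where 33.7% of all genes were called (16.2% and 17.5%). In CEAR 2 members rose, A4GNT and GATA4, and 6 fell, MUC13, CDH17, SOX2, FOXA1, KLF5 and A1CF, where 6.19% of all genes were called (2.57% and 3.62%). With the block 11 rose and 14 fell, beside 25.8% of all genes (12% and 13.8%). Between the derivatives 4 members were higher in HER2R and 7 lower, where 14.1% of all genes were called (7.32% and 6.75%). With the block these were 8 and 17, beside 38.2% (19.7% and 18.6%). All 7, 8 and 11 calls were also made with the block. Both comparisons with MKN45 share its libraries.

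The counts rested on few libraries, and the share of all tested genes called, given in parentheses, fell too. In HER2R against MKN45 the members called numbered 1 (1.39%) once HER2R library 1 was left out, 0 (1.23%) with its library 2 dropped and 1 (2.36%) once MKN45 library 2 was left out. In CEAR against MKN45 they numbered 2 (2.58%) once HER2R library 1 was left out, 4 (2.78%) with its library 2 dropped, 5 (1.83%) lacking CEAR library 1, 2 (1.65%) lacking CEAR library 2 and 2 (2.08%) once MKN45 library 2 was left out. In HER2R against CEAR they numbered 2 (1.25%) once HER2R library 1 was left out, 1 (0.663%) with its library 2 dropped, 7 (3.4%) lacking CEAR library 1 and 4 (2.34%) lacking CEAR library 2. SOX2, in CEAR against MKN45 and in HER2R against CEAR, stayed called with each library left out in turn. Of the called members LYZ, ANXA10, VIL1, HNF4A, FOXA1 and A1CF overlap another gene on the other strand. Whether the counting used the strand is not given in the sources used here, so their counts may hold reads of that gene. The A1CF counts of the derivatives held none, since they were 0 while the overlapping ASAH2B had 1112 (HER2R) and 724 (CEAR). Below, a value in parentheses after a library or setting is the adjusted p without that library or with that setting.

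**Figure D3:**
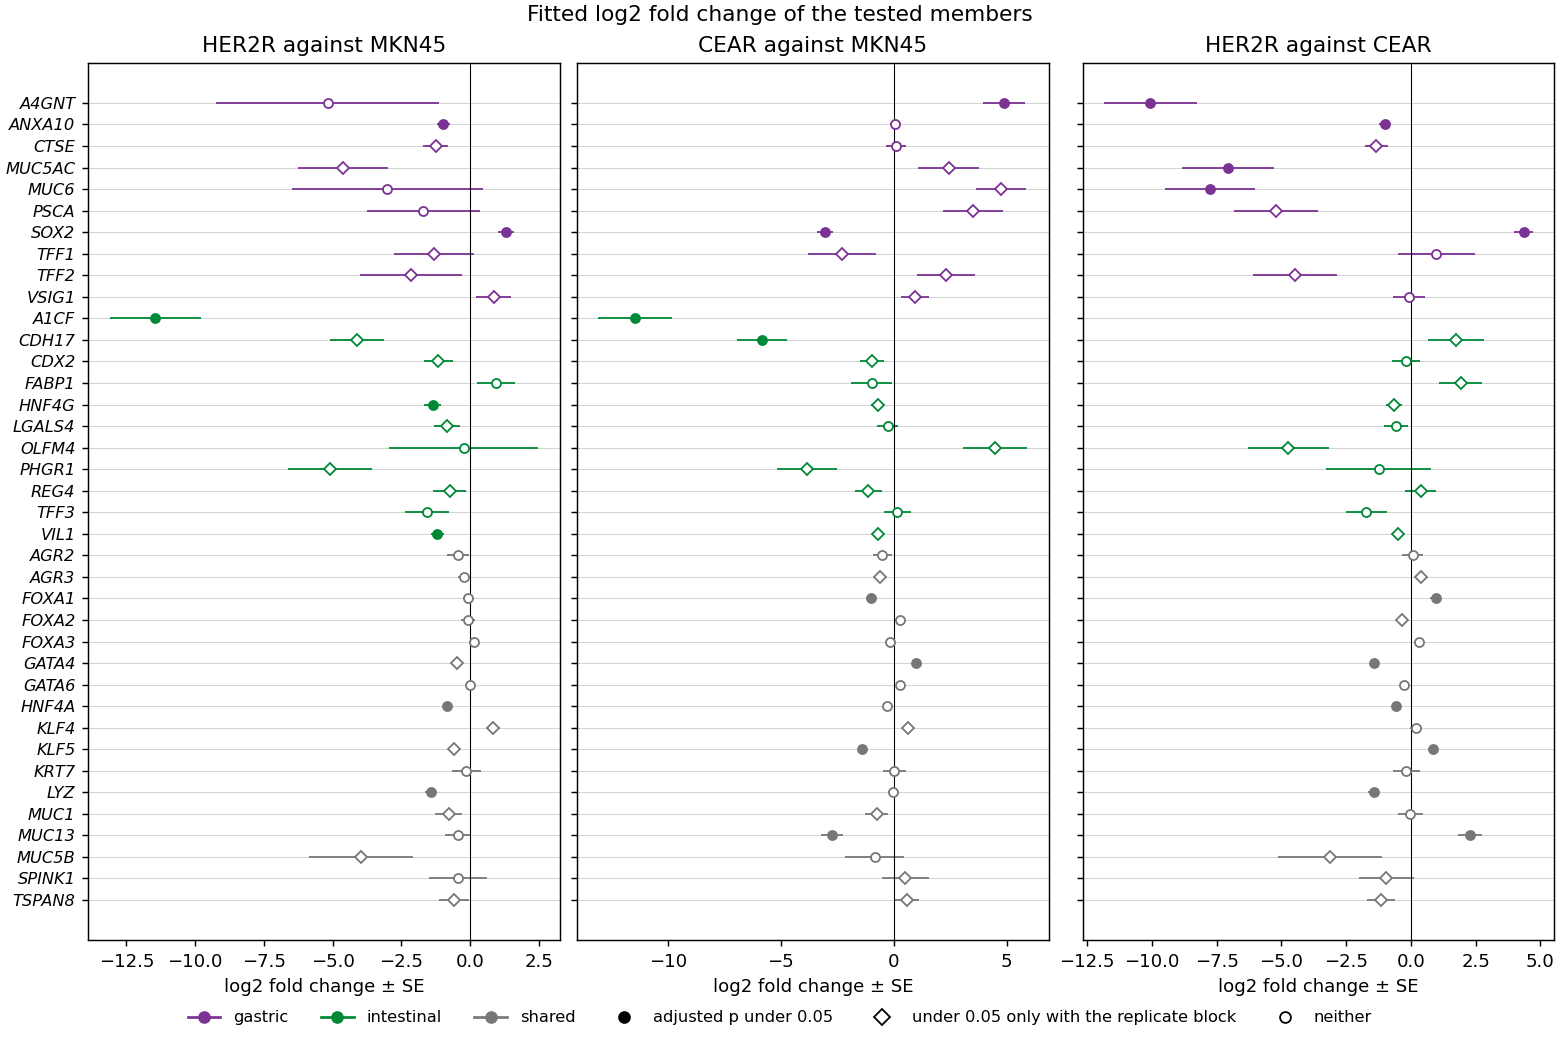
Fitted log2 fold change with its SE for the tested members in the 3 comparisons, coloured by class; filled points passed the edgeR test and diamonds passed it only with the replicate block. SOX2 lies above 0 in HER2R and below 0 in CEAR, and the fitted values of genes with a line at 0 counts (A1CF, A4GNT, MUC6) depend on the prior count.

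MUC5AC, the gel-forming mucin of gastric surface cells, had 4.11 and 82.1 CPM in the MKN45 libraries, 0.153 and 3.32 in those of HER2R and 99.6 and 366 in those of CEAR. Both CEAR libraries lay above all others, and both HER2R libraries lay below all others. HER2R was lower than CEAR by a log2 fold change of -7.07 (SE 1.77, edgeR adjusted p = 0.0464). That call of MUC5AC was lost without HER2R library 1 (0.190, log2 fold change -6.13), HER2R library 2 (0.145, log2 fold change -10.54), CEAR library 1 (0.0664, log2 fold change -7.73) or CEAR library 2 (0.113, log2 fold change -5.85). It was also lost with no filter on low counts (0.0659), limma-voom (0.144) and edgeR's legacy method (0.0530). Against MKN45 neither derivative passed for MUC5AC, with edgeR adjusted p = 0.1245 for HER2R and 0.344 for CEAR (0.00146 and 0.00211 with the block).

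MUC6, the gland mucin encoded near MUC5AC on chromosome 11, had 0 and 2 counts in MKN45, none in HER2R, and 33 and 19 in CEAR. In CEAR that was 0.795 and 0.427 CPM, above every other library. MUC6 passed the filter on low counts through CEAR alone, so its test was tied to its level there. MUC6 was at least 15.8-fold lower in HER2R than in CEAR, with a floor of 3 counts over the line (edgeR adjusted p = 0.0319). The call of MUC6 was lost without HER2R library 1 (0.132), HER2R library 2 (0.142), CEAR library 1 (0.0990) or CEAR library 2 (0.0705). CEAR over MKN45 gave a ratio of 30.4-fold (95% counting interval 7.99 to 257), with edgeR adjusted p = 0.0523, and 0.00777 with the block. Floors and intervals cover counting error only.

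MUC13, a membrane mucin, had 48.6 and 69.3 CPM (MKN45), 40.6 and 45.5 (HER2R) and 4.36 and 13.3 (CEAR), so that both CEAR libraries lay below all others. It fell in CEAR against MKN45, with a log2 fold change of -2.73 (SE 0.482, edgeR adjusted p = 0.0272), and was higher in HER2R than in CEAR, at 2.28 (SE 0.477, edgeR adjusted p = 0.0299). The call of MUC13 against MKN45 was lost without MKN45 library 1 (0.0566), MKN45 library 2 (0.0887), HER2R library 1 (0.0709) or HER2R library 2 (0.0708). The same held with a fit of the 2 lines alone (0.0730). For MUC13 in CEAR against MKN45 the log2 fold change was -2.15 without CEAR library 1 and -3.75 without CEAR library 2, with the call kept. The call of MUC13 between the derivatives was lost without HER2R library 1 (0.117) or HER2R library 2 (0.132). For MUC13 in HER2R against CEAR the log2 fold change was 1.69 without CEAR library 1 and 3.30 without CEAR library 2, with the call kept.

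The trefoil factors, small peptides secreted with mucins, did not pass the test between lines without the block. TFF1 overlapped between all lines, with edgeR adjusted p = 0.606 for HER2R and 0.424 for CEAR against MKN45 (0.0219 and 0.00285 with the block, both lower). TFF2, of gland mucous cells, had 0.177 and 3.30 CPM in the MKN45 libraries, 0.0255 and 0.714 in those of HER2R and 1.78 and 14.6 in those of CEAR. TFF2 in HER2R against CEAR had a log2 fold change of -4.46 (SE 1.62, edgeR adjusted p = 0.115), and 0.000169 with the block. With the block TFF2 was also lower in HER2R than in MKN45 (edgeR adjusted p = 0.009055) and higher in CEAR than in MKN45 (edgeR adjusted p = 0.000908). TFF3, of goblet cells, had 0.213 and 0.341 CPM (MKN45), 0.0764 and 0.102 (HER2R) and 0.193 and 0.4045 (CEAR), with both HER2R libraries lowest.

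MUC1, a membrane mucin, had 225 and 454 CPM (MKN45), 153 and 243 (HER2R) and 119 and 282 (CEAR), and the lines overlapped. MUC1 passed with the block alone, lower in HER2R (edgeR adjusted p = 0.00626) and in CEAR (0.00521). MUC5B, a gel-forming mucin of airways and glands, had 0.301 and 8.004 CPM (MKN45), 0.0764 and 0.434 (HER2R) and 0.4095 and 4.02 (CEAR). HER2R overlapped with MKN45 and CEAR in MUC5B (edgeR adjusted p = 0.2235 against MKN45, and 0.000462 with the block). With the block MUC5B was also lower in HER2R than in CEAR (edgeR adjusted p = 0.00188). The goblet cell mucin MUC2 had 2 and 10 counts in the MKN45 libraries, 1 and 4 in those of HER2R and 0 and 0 in those of CEAR. The membrane mucin MUC4 had 6 and 6 counts in the MKN45 libraries, 8 and 3 in those of HER2R and 1 and 2 in those of CEAR. Both mucins were too low to test. Of the 8 tested members of this group, 0 rose and 0 fell in HER2R (0 rose and 5 fell with the block). In CEAR 0 rose and 1 fell (3 rose and 3 fell with the block), and the counts between the derivatives were 1 higher and 2 lower in HER2R (1 and 4 with the block). Over all tested genes 9.74% (HER2R), 6.19% (CEAR) and 14.1% (between the derivatives) were called, and 33.7%, 25.8% and 38.2% with the block. At an unadjusted p under 0.05, 1 of these 8 members differed between HER2R and MKN45, beside 4280 of 14958 tested genes.

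A4GNT, the transferase that caps gland mucin glycans with N-acetylglucosamine, had 4 and 6 counts in MKN45, none in HER2R, and 58 and 205 in CEAR. The CEAR libraries held 1.40 and 4.61 CPM, above every other library. A4GNT passed the filter on low counts through CEAR alone, so its test was tied to its level there. A4GNT rose in CEAR with a log2 fold change of 4.88 (SE 0.928, edgeR adjusted p = 0.0420). This rise of A4GNT was lost without MKN45 library 1 (0.156), MKN45 library 2 (0.142), HER2R library 1 (0.0659), HER2R library 2 (0.0650) or CEAR library 2 (0.08245, log2 fold change 3.77). So it was with no filter on low counts (0.0642), limma-voom (0.0541) and a fit of the 2 lines alone (0.0674). For A4GNT in CEAR against MKN45 the log2 fold change was 5.49 without CEAR library 1, with the call kept. A4GNT was at least 80-fold lower in HER2R than in CEAR (edgeR adjusted p = 0.0255). The difference of A4GNT between the derivatives was lost without HER2R library 1 (0.107) or HER2R library 2 (0.111). Against MKN45, A4GNT was at least 2.6-fold lower in HER2R, which did not pass (edgeR adjusted p = 0.455).

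A4GNT lies on chromosome 3, from 138123718 to 138132387 on the minus strand of GRCh38. The 250 bases before its start are shown because A4GNT is the gastric member that rose in CEAR. They are from RefSeq on GRCh38.p14, chr3:138132391-138132640, minus strand, written 5′ to 3′.
A4GNT: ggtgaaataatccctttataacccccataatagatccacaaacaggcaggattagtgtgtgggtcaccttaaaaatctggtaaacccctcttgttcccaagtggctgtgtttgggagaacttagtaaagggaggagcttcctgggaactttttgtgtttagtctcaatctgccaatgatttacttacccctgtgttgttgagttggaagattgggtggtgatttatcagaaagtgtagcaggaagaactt
None of the motifs searched below was found in this window.

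LYZ, lysozyme, had 905 and 1129 CPM in the MKN45 libraries, 362 and 399.9 in those of HER2R and 827 and 1192 in those of CEAR. The HER2R libraries lay below all others, and MKN45 and CEAR overlapped. LYZ fell in HER2R with a log2 fold change of -1.42 (SE 0.2325, edgeR adjusted p = 0.01925) against MKN45 and -1.41 (SE 0.2325, edgeR adjusted p = 0.01745) against CEAR. Against MKN45 the call of LYZ was lost without MKN45 library 2 (0.0714), HER2R library 1 (0.136) or HER2R library 2 (0.118). Against CEAR it was lost without HER2R library 1 (0.113), HER2R library 2 (0.106) or CEAR library 2 (0.0743).

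The other secreted products did not pass between lines without the block. CTSE, a gastric aspartic protease, had 91.05 and 255 CPM (MKN45), 61.3 and 83.9 (HER2R) and 183.5 and 184 (CEAR), with both HER2R libraries below the rest (edgeR adjusted p = 0.124 against MKN45 and 0.0934 against CEAR, and 0.0165 and 0.00645 with the block). OLFM4, a glycoprotein of intestinal stem cells, had 0.0709 and 0.182 CPM (MKN45), 0 and 0.204 (HER2R) and 0.361 and 5.12 (CEAR), with both CEAR libraries above the rest (edgeR adjusted p = 0.113 against MKN45, and 0.0003985 with the block). REG4 had 582 ± 377 CPM in MKN45, 348 ± 157 in HER2R and 268 ± 153 in CEAR (mean ± SD, n = 2 libraries). AGR2, a disulfide isomerase needed for mucin folding, had 3307 ± 892 CPM in MKN45, 2460 ± 684 in HER2R and 2337 ± 1052 in CEAR (SD, n = 2). AGR3, its close relative, had 125 ± 11.8 CPM in MKN45, 107 ± 1.98 in HER2R and 81.1 ± 21.7 in CEAR (SD, n = 2). SPINK1, a trypsin inhibitor of mucous cells, had 11.1 and 87.3 CPM (MKN45), 12.5 and 60.1 (HER2R) and 37.65 and 103 (CEAR). MKN45 and CEAR overlapped in REG4, AGR2 and SPINK1. With the block REG4 was lower in HER2R than in MKN45 (edgeR adjusted p = 0.00867), lower in CEAR than in MKN45 (edgeR adjusted p = 0.00112) and higher in HER2R than in CEAR (edgeR adjusted p = 0.0373). AGR3 was lower in CEAR than in MKN45 (edgeR adjusted p = 0.0125) and higher in HER2R than in CEAR (edgeR adjusted p = 0.0449) in that fit. SPINK1 was higher in CEAR than in MKN45 (edgeR adjusted p = 0.0403) and lower in HER2R than in CEAR (edgeR adjusted p = 0.01215), and OLFM4 was also lower in HER2R than in CEAR (edgeR adjusted p = 0.000361). Of the 8 tested members of this group, 0 rose and 1 fell in HER2R (0 rose and 3 fell with the block). In CEAR 1 rose and 0 fell (3 rose and 2 fell with the block), and the counts between the derivatives were 0 higher and 2 lower in HER2R (2 and 5 with the block). Across all tested genes 9.74% (HER2R), 6.19% (CEAR) and 14.1% (between the derivatives) were called, and 33.7%, 25.8% and 38.2% with the block.

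CDH17, the liver-intestine cadherin, had 33.5 and 149 CPM in the MKN45 libraries, 2.47 and 8.11 in those of HER2R and 0.3855 and 2.72 in those of CEAR. Both MKN45 libraries lay above all others, and the derivatives overlapped. CDH17 fell in CEAR with a log2 fold change of -5.85 (SE 1.11, edgeR adjusted p = 0.0335). The call of CDH17 was lost without MKN45 library 2 (0.0772, log2 fold change -4.42), HER2R library 1 (0.0637), HER2R library 2 (0.0637), CEAR library 1 (0.102, log2 fold change -5.06) or CEAR library 2 (0.0720, log2 fold change -7.87). Other settings that ended it were limma-voom (0.0819) and a fit of the 2 lines alone (0.0674). For CDH17 in CEAR against MKN45 the log2 fold change was -6.56 without MKN45 library 1, with the call kept. In HER2R the log2 fold change was -4.10 (SE 0.987, edgeR adjusted p = 0.0504), and the adjusted p was 9.28e-06 with the block. With the block CDH17 was also higher in HER2R than in CEAR (edgeR adjusted p = 0.000750).

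VIL1, villin, which bundles the actin of microvilli, had 205 and 192 CPM (MKN45), 108 and 66.9 (HER2R) and 134 and 113 (CEAR), and no lines overlapped. VIL1 fell in HER2R with a log2 fold change of -1.18 (SE 0.2345, edgeR adjusted p = 0.0302). The call of VIL1 was lost without MKN45 library 1 (0.0936), MKN45 library 2 (0.0866) or HER2R library 2 (0.118). For CEAR the value was -0.68 (SE 0.232, edgeR adjusted p = 0.141), and 0.00944 with the block. With the block VIL1 was also lower in HER2R than in CEAR (edgeR adjusted p = 0.0217).

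ANXA10, an annexin of gastric epithelium, had 55.3 and 74.15 CPM (MKN45), 29.55 and 36.6 (HER2R) and 77.9 and 56.0 (CEAR), with both HER2R libraries below the rest. ANXA10 fell in HER2R with a log2 fold change of -0.97 (SE 0.2305, edgeR adjusted p = 0.0495) against MKN45 and -1.02 (SE 0.231, edgeR adjusted p = 0.0358) against CEAR. The first call of ANXA10 was lost without MKN45 library 1 (0.0662), MKN45 library 2 (0.164), HER2R library 1 (0.233) or HER2R library 2 (0.149). It was also lost with RLE size factors (0.0506), no filter on low counts (0.0673), limma-voom (0.0546), 5 abundant noncoding RNAs left out (0.0509) and edgeR's legacy method (0.0521). The second call was lost without HER2R library 1 (0.175), HER2R library 2 (0.127), CEAR library 1 (0.126) or CEAR library 2 (0.0583).

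The other surface and absorptive genes did not pass between lines without the block. PHGR1, of intestinal epithelium, had 1.35 and 19.9 CPM (MKN45), 0.153 and 0.459 (HER2R) and 0.265 and 1.17 (CEAR), and each derivative library lay below both MKN45 libraries (edgeR adjusted p = 0.0850 in HER2R and 0.1435 in CEAR, and 0.000179 and 0.000369 with the block). PSCA, a small anchored surface protein of the stomach, had 0.248 and 1.865 CPM (MKN45), 0.255 and 0.357 (HER2R) and 1.18 and 21.6 (CEAR) (CEAR against MKN45 edgeR adjusted p = 0.180, and 0.00161 with the block). VSIG1, a junction protein of gastric epithelium, had 38.05 and 92.2 CPM (MKN45), 58.9 and 178 (HER2R) and 82.85 and 165 (CEAR), and the lines overlapped (edgeR adjusted p = 0.416 and 0.437 against MKN45, and 0.00386 and 0.00192 with the block, both higher). LGALS4 had 450.3 ± 165 CPM in MKN45, 252 ± 51.1 in HER2R and 373 ± 231 in CEAR, and TSPAN8 had 711.5 ± 416 CPM in MKN45, 474 ± 202 in HER2R and 1059 ± 551 in CEAR (SD, n = 2). KRT7, a simple epithelial keratin, had 249 ± 155.5 CPM in MKN45, 226 ± 105 in HER2R and 255 ± 98.25 in CEAR (SD, n = 2). FABP1, a fatty acid carrier of liver and intestine, was at or below 0.510 CPM in all libraries. With the block TSPAN8 was lower in HER2R than in MKN45 (edgeR adjusted p = 0.02515), higher in CEAR than in MKN45 (edgeR adjusted p = 0.0177) and lower in HER2R than in CEAR (edgeR adjusted p = 0.000907). LGALS4 was lower in HER2R than in MKN45 (edgeR adjusted p = 0.01645) in that fit. FABP1 was higher in HER2R than in CEAR (edgeR adjusted p = 0.0469), and PSCA was lower in HER2R than in CEAR (edgeR adjusted p = 0.000526).

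KRT20, a keratin of mature intestinal cells, was too low to test. It had 4 and 41 counts in the MKN45 libraries, 4 and 8 in those of HER2R and 0 and 1 in those of CEAR. Summed over libraries, MKN45 over CEAR gave a ratio of 38.5-fold (95% counting interval 6.57 to 1560) for KRT20. That ratio rests mainly on MKN45 library 2 (0.932 CPM, beside 0.0709 in library 1). ANPEP, an aminopeptidase of the brush border, had 6, 3 and 29 counts in MKN45, HER2R and CEAR, those of CEAR all in library 2. Of the 10 tested members of this group, 0 rose and 2 fell in HER2R (1 rose and 6 fell with the block). In CEAR 0 rose and 1 fell (3 rose and 3 fell with the block), and the counts between the derivatives were 0 higher and 1 lower in HER2R (2 and 4 with the block). The called shares of all tested genes were 9.74% (HER2R), 6.19% (CEAR) and 14.1% (between the derivatives), and 33.7%, 25.8% and 38.2% with the block.

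SOX2, a factor of foregut and gastric identity, had 9.99 and 10.6 CPM in the MKN45 libraries, 26.3 and 24.5 in those of HER2R and 1.76 and 0.7415 in those of CEAR. No libraries of different lines overlapped. SOX2 rose in HER2R with a log2 fold change of 1.30 (SE 0.289, edgeR adjusted p = 0.0410) and fell in CEAR with one of -3.05 (SE 0.352, edgeR adjusted p = 0.008675). HER2R was above CEAR by 4.36 (SE 0.355, edgeR adjusted p = 0.00292). The rise of SOX2 in HER2R was lost without MKN45 library 1 (0.132), MKN45 library 2 (0.128), HER2R library 1 (0.187) or HER2R library 2 (0.161). The same held with no filter on low counts (0.0592) and edgeR's legacy method (0.0642). For SOX2 in CEAR against MKN45 the log2 fold change was -3.79 without CEAR library 1, with the call kept. For SOX2 in HER2R against CEAR the log2 fold change was 5.09 without CEAR library 1, with the call kept.

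SOX2 lies on chromosome 3, from 181711924 to 181714436 on the plus strand of GRCh38, within the noncoding gene SOX2-OT on the same strand. The sequence before its start is shown because SOX2 is the member called in opposite directions in the derivatives. It is from RefSeq on GRCh38.p14, chr3:181711675-181711923, plus strand, written 5′ to 3′.
SOX2: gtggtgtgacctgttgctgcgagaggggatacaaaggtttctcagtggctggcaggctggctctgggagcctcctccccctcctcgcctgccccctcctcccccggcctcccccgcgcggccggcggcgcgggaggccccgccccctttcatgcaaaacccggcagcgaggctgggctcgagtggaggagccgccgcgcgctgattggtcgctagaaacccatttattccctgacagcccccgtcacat
None of the motifs searched below was found in it.

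A1CF, an RNA-binding cofactor of the editing enzyme APOBEC1, had 4.32 and 11.7 CPM (MKN45), 0 and 0 (HER2R) and 0 and 0 (CEAR). MKN45 held 244 and 515 counts and the 4 derivative libraries none. A1CF passed the filter on low counts through MKN45 alone, so its test was tied to its level there. A1CF was at least 198-fold lower in HER2R (edgeR adjusted p = 0.02675) and at least 217-fold lower in CEAR (edgeR adjusted p = 0.0320). The call of A1CF in HER2R was lost without HER2R library 1 (0.119) or HER2R library 2 (0.118). So it was with DESeq2 (0.101). The call of A1CF in CEAR was lost without HER2R library 1 (0.0509), CEAR library 1 (0.0710) or CEAR library 2 (0.0785). Other settings that ended it were DESeq2 (0.122) and a fit of the 2 lines alone (0.0524).

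A1CF spans 50799409 to 50885675 on the minus strand of chromosome 10 (GRCh38), and one end overlaps ASAH2B on the other strand. ASAH2B had 8.84 ± 4.09 CPM in MKN45, 14.2 ± 1.89 in HER2R and 8.42 ± 0.119 in CEAR (SD, n = 2) and passed only with the block, higher in HER2R than in MKN45 (edgeR adjusted p = 0.0444) and than in CEAR (0.0391). The sequence before the start of A1CF is shown because it is the member with no count in either derivative. It is from RefSeq on GRCh38.p14, chr10:50885676-50885877, minus strand, written 5′ to 3′ and ending where the GENCODE 29 gene begins.
A1CF: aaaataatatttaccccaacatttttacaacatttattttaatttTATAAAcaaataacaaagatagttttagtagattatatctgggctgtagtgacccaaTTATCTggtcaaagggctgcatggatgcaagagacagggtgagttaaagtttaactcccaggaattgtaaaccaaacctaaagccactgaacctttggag
The capitals mark a TATA box at -205 to -200 and a GATA motif on the other strand at -148 to -143, counted back from the RefSeq start.

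HNF4A and HNF4G are nuclear receptors that drive absorptive genes. HNF4A had 153 and 165.5 CPM (MKN45), 91.8 and 85.6 (HER2R) and 132 and 131 (CEAR), and HNF4G had 8.95 and 10.6 CPM (MKN45), 2.83 and 4.74 (HER2R) and 5.565 and 6.36 (CEAR). For both genes no lines overlapped and HER2R was lowest. HNF4A fell in HER2R with a log2 fold change of -0.85 (SE 0.120, edgeR adjusted p = 0.0127) against MKN45 and -0.57 (SE 0.120, edgeR adjusted p = 0.0300) against CEAR. The call of HNF4A against MKN45 was lost without MKN45 library 2 (0.0605), HER2R library 1 (0.0835) or HER2R library 2 (0.108). Against CEAR it was lost without HER2R library 1 (0.125), HER2R library 2 (0.169), CEAR library 1 (0.124) or CEAR library 2 (0.125). HNF4G fell in HER2R with a log2 fold change of -1.36 (SE 0.297, edgeR adjusted p = 0.0394). The call of HNF4G was lost without any 1 of the 6 libraries, namely MKN45 library 1 (0.08545), MKN45 library 2 (0.129), HER2R library 1 (0.177), HER2R library 2 (0.0859), CEAR library 1 (0.0551) or CEAR library 2 (0.0561). It was also lost with a fit of the 2 lines alone (0.0532). In CEAR the value of HNF4G was -0.71 (SE 0.285, edgeR adjusted p = 0.202), and 0.0342 with the block. With the block HNF4G was also lower in HER2R than in CEAR (edgeR adjusted p = 0.0460).

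The sequence before the start of HNF4A is shown for the GATA motif close to it. It is from RefSeq on GRCh38.p14, chr20:44355449-44355698, plus strand, written 5′ to 3′.
HNF4A: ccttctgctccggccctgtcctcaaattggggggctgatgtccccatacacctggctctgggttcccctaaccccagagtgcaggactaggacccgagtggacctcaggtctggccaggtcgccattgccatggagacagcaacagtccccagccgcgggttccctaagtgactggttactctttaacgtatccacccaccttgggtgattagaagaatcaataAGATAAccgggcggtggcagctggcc
The capitals mark that motif at -26 to -21.

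GATA4, a factor of gastric epithelium, had 30.2 and 25.5 CPM (MKN45), 21.8 and 18.6 (HER2R) and 55.2 and 54.5 (CEAR), and no lines overlapped. GATA4 rose in CEAR with a log2 fold change of 0.98 (SE 0.157, edgeR adjusted p = 0.0209) and was lower in HER2R than in CEAR, at -1.44 (SE 0.159, edgeR adjusted p = 0.00699). The rise of GATA4 was lost without MKN45 library 1 (0.0565), MKN45 library 2 (0.0975), HER2R library 1 (0.0504), CEAR library 1 (0.0965) or CEAR library 2 (0.0898). The difference of GATA4 between the derivatives was lost without HER2R library 2 (0.0668). In HER2R against MKN45 the value was -0.46 (SE 0.158, edgeR adjusted p = 0.113), and 0.0190 with the block. GATA6, its relative, had 78.9 and 81.25 CPM (MKN45), 84.1 and 76.6 (HER2R) and 89.4 and 103 (CEAR), with edgeR adjusted p = 0.985 and 0.292 against MKN45. GATA5 was too low to test, with 9, 2 and 23 counts.

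FOXA1, which opens chromatin in endoderm, had 9.94 and 10.9 CPM (MKN45), 10.75 and 9.16 (HER2R) and 5.08 and 5.17 (CEAR). Both CEAR libraries lay below all others. FOXA1 fell in CEAR with a log2 fold change of -1.02 (SE 0.206, edgeR adjusted p = 0.0394) and was higher in HER2R than in CEAR, at 0.96 (SE 0.207, edgeR adjusted p = 0.0319). The fall of FOXA1 was lost without any 1 of the 6 libraries, namely MKN45 library 1 (0.101), MKN45 library 2 (0.140), HER2R library 1 (0.0861), HER2R library 2 (0.0833), CEAR library 1 (0.165) or CEAR library 2 (0.1645). The same held with a fit of the 2 lines alone (0.0823). The difference of FOXA1 between the derivatives was lost without HER2R library 1 (0.1595), HER2R library 2 (0.116), CEAR library 1 (0.132) or CEAR library 2 (0.134).

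KLF5, a factor of epithelial progenitors, had 287 and 303 CPM (MKN45), 165.5 and 233 (HER2R) and 103 and 120.5 (CEAR), and no lines overlapped. KLF5 fell in CEAR with a log2 fold change of -1.40 (SE 0.193, edgeR adjusted p = 0.0145) and was higher in HER2R than in CEAR, at 0.83 (SE 0.191, edgeR adjusted p = 0.0365). The fall of KLF5 was lost without MKN45 library 2 (0.0538), CEAR library 1 (0.0711) or CEAR library 2 (0.05395). The difference of KLF5 between the derivatives was lost without any 1 of the 6 libraries, namely MKN45 library 1 (0.0530), MKN45 library 2 (0.05125), HER2R library 1 (0.06465), HER2R library 2 (0.166), CEAR library 1 (0.152) or CEAR library 2 (0.104). So it was with no filter on low counts (0.0545) and a fit of the 2 lines alone (0.0510). With the block KLF5 was also lower in HER2R than in MKN45 (edgeR adjusted p = 0.00783).

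CDX2, the master factor of the intestine, had 9.725 and 19.6 CPM in the MKN45 libraries, 5.146 and 8.03 in those of HER2R and 4.19 and 10.7 in those of CEAR. Both HER2R libraries lay below the MKN45 libraries, and CEAR overlapped with both lines. For CDX2 the log2 fold change was -1.15 (SE 0.525, edgeR adjusted p = 0.209) in HER2R and -0.97 in CEAR (edgeR adjusted p = 0.326), with 0.00440 and 0.00765 with the block. KLF4, a factor of terminal differentiation, had 48.4 and 67.8 CPM (MKN45), 93.5 and 114 (HER2R) and 74.9 and 107 (CEAR), above MKN45 in each derivative library (edgeR adjusted p = 0.0770 and 0.170, and 0.000790 and 0.00337 with the block). FOXA2 had 64.7 and 43.8 CPM (MKN45), 60.5 and 43.1 (HER2R) and 71.6 and 59.7 (CEAR), and FOXA3, another factor of that family, had 31.9 and 40.8 CPM (MKN45), 36.7 and 43.9 (HER2R) and 30.2 and 35.3 (CEAR). The lines overlapped for FOXA2 and FOXA3. With the block FOXA2 was lower in HER2R than in CEAR (edgeR adjusted p = 0.0363). Of the 12 tested members of this group, 1 rose and 3 fell in HER2R (2 rose and 6 fell with the block). In CEAR 1 rose and 4 fell (2 rose and 6 fell with the block), and the counts between the derivatives were 3 higher and 2 lower in HER2R (3 and 4 with the block). Among all tested genes 9.74% (HER2R), 6.19% (CEAR) and 14.1% (between the derivatives) were called, and 33.7%, 25.8% and 38.2% with the block.

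Gastric and intestinal members were then set side by side. In HER2R against MKN45, 1 rose and 1 fell of 10 gastric members, and 0 rose and 3 fell of 11 intestinal ones (2 rose and 5 fell, and 0 rose and 8 fell, with the block). Of all tested genes 9.74% were called there, and 33.7% with the block. The gastric and intestinal median log2 fold changes were -1.50 and -1.18, beside -0.43 for shared members and -0.02 for all tested genes. In CEAR, 1 rose and 1 fell of the gastric members and 0 rose and 2 fell of the intestinal ones. With the block 6 rose and 2 fell of the gastric members in CEAR and 1 rose and 7 fell of the intestinal ones. Of all tested genes 6.19% were called in CEAR, and 25.8% with the block. The gastric and intestinal medians in CEAR were 1.62 and -0.97, beside -0.15 for shared members and -0.0001919 for all tested genes. In CEAR 8 of 10 gastric and 2 of 11 intestinal members had a positive log2 fold change, beside 7469 of 14958 tested genes. Of those 8, CTSE (0.09) and ANXA10 (0.05) lay near 0. In HER2R 2 of 10 gastric and 1 of 11 intestinal members had a positive value, beside 7285 of 14958 tested genes. Between the derivatives 1 gastric member was higher in HER2R and 4 were lower, and 0 of 11 intestinal members passed in edgeR without the block (1 at an unadjusted p under 0.05, and 1 in DESeq2). A1CF, among those 11, had no count in either derivative, so it could not differ between them. With the block 1 gastric member was higher and 7 were lower in HER2R than in CEAR, and 3 intestinal members were higher and 3 lower. Of all tested genes 14.1% were called between the derivatives, and 38.2% with the block. The gastric and intestinal medians were -2.90 and -0.50, beside 0 for all genes. The intestinal one includes A1CF at 0, and was -0.53 over the 10 other members. With genes that had a line at 0 counts set to their bound, the gastric medians were -1.31 in HER2R against MKN45 and -2.66 between the derivatives.

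The gastric minus the intestinal median was -0.318 for HER2R against MKN45, 2.59 for CEAR against MKN45 and -2.4 for HER2R against CEAR. The first was 1.05 without MKN45 library 2 and 0.228 in limma-voom, so its sign was not settled. The second was 3.95 without MKN45 library 2. Gastric A4GNT and MUC6 and intestinal OLFM4 passed the filter on low counts through CEAR alone, where they were highest. Intestinal A1CF passed it through MKN45 alone. The medians therefore rest in part on which line let a gene into the test. With no filter on low counts the gastric minus intestinal values were -0.355, 1.54 and -1.34. With 7 debatable members moved to another class they were -0.163, 1.06 and -0.774. Library by library, the median log2 CPM of the gastric minus that of the intestinal members was -0.48 and 0.52 (MKN45), -0.77 and 0.92 (HER2R) and 2.84 and 2.35 (CEAR). Both CEAR libraries lay above the other 4, and MKN45 and HER2R overlapped.

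The genes around A4GNT, A1CF, CDH17, MUC5AC and SOX2 were also described, within 500000 bases on GRCh38 by GENCODE 29 positions. These members were chosen after their values were seen. Around A4GNT 8 genes were tested, and 3 of them were higher in CEAR than in both other lines. Of all tested genes 2.57% were higher in CEAR than in MKN45, and 6.75% were lower in HER2R than in CEAR. CLDN18, a tight junction claudin of the stomach at 90063 bases, had 2.34 ± 0.355 CPM in MKN45, 2.59 ± 0.340 in HER2R and 38.8 ± 11.3 in CEAR (SD, n = 2; log2 fold change 4.06, edgeR adjusted p = 0.00241). DZIP1L, a cilium gene at 7900 bases on the same side, had 1.43 ± 0.227 CPM in MKN45, 2.31 ± 0.449 in HER2R and 26.0 ± 6.235 in CEAR (SD, n = 2; log2 fold change 4.17, edgeR adjusted p = 0.00241). DBR1, the lariat debranching enzyme gene at 28625 bases on the other side, had 31.6 ± 2.525 CPM in MKN45, 28.8 ± 1.29 in HER2R and 53.9 ± 3.08 in CEAR (SD, n = 2; log2 fold change 0.77, edgeR adjusted p = 0.0292). Against HER2R, CEAR was higher too (HER2R against CEAR: CLDN18, log2 fold change -3.91, edgeR adjusted p = 0.00233, DZIP1L, log2 fold change -3.49, edgeR adjusted p = 0.00293, and DBR1, log2 fold change -0.90, edgeR adjusted p = 0.0146). The differences of CLDN18 and DZIP1L from MKN45 and from HER2R were called in all 14 alternatives. That of DBR1 from MKN45 was lost without any 1 of the 6 libraries, namely MKN45 library 1 (0.0766), MKN45 library 2 (0.131), HER2R library 1 (0.07465), HER2R library 2 (0.07395), CEAR library 1 (0.102) or CEAR library 2 (0.141). Other settings that ended it were a fit of the 2 lines alone (0.0711). The call of DBR1 against HER2R was lost without HER2R library 1 (0.0988), HER2R library 2 (0.0939), CEAR library 1 (0.0527) or CEAR library 2 (0.0783). The genes further out on that side, ARMC8, MRAS, ESYT3, CEP70 and FAIM, did not pass in any comparison of lines without the block. With it MRAS and ESYT3 were higher than in MKN45 in both derivatives (edgeR adjusted p = 0.00828 in HER2R and 0.00301 in CEAR for MRAS, and 0.0123 and 0.0202 for ESYT3), and ARMC8 was lower in HER2R than in CEAR (0.0193).

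**Figure D4:**
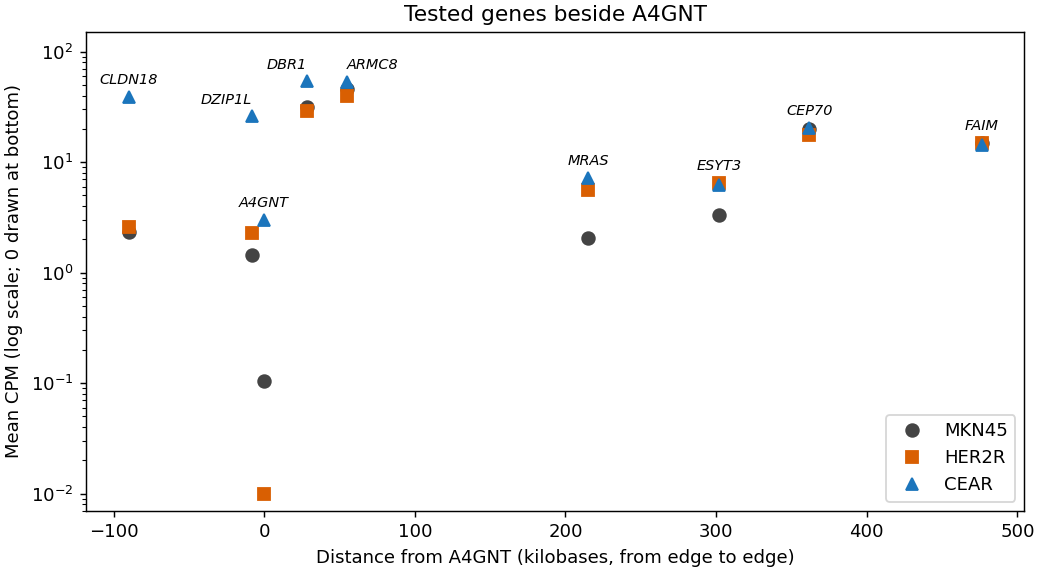
Mean level in CPM (log scale, n = 2 libraries) of A4GNT and the tested genes around it, by line, against the distance from A4GNT in kilobases. CLDN18, DZIP1L and A4GNT are highest in CEAR, and A4GNT has no count in HER2R.

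Of the 2 tested genes near A1CF, SGMS1 and ASAH2B, neither passed in any comparison of lines without the block, and ASAH2B passed with it, as given above. Around CDH17, 1 of 7 tested genes was lower in CEAR than in MKN45, beside 3.62% of all tested genes. That gene was FSBP, which overlaps RAD54B (log2 fold change -1.37, edgeR adjusted p = 0.0430). The call of FSBP against MKN45 was lost without any 1 of the 6 libraries, namely MKN45 library 1 (0.119), MKN45 library 2 (0.1235), HER2R library 1 (0.09565), HER2R library 2 (0.0945), CEAR library 1 (0.169) or CEAR library 2 (0.0760). It was also lost with no filter on low counts (0.0539), a fit of the 2 lines alone (0.0934) and edgeR's legacy method (0.0510). There, 2 of the 7 were higher in HER2R than in CEAR, beside 7.32% of all tested genes. These were GEM, a small GTPase gene (log2 fold change 1.47, edgeR adjusted p = 0.0146), and FSBP (log2 fold change 1.37, edgeR adjusted p = 0.0298). The call of GEM was lost without HER2R library 1 (0.0755), HER2R library 2 (0.0990), CEAR library 1 (0.0742) or CEAR library 2 (0.0622). The call of FSBP between the derivatives was lost without HER2R library 1 (0.1195), HER2R library 2 (0.146), CEAR library 1 (0.120) or CEAR library 2 (0.0619). With the block GEM was also lower in CEAR than in MKN45 (edgeR adjusted p = 0.0145) and higher in HER2R than in MKN45 (0.0445), and PDP1 was higher in HER2R than in CEAR (0.03325). Around MUC5AC 9 of 21 tested genes, MUC6 among them, were lower in HER2R than in CEAR and 0 were higher, beside 6.75% and 7.32% of all tested genes. This count of 9 fell when any 1 library of HER2R or CEAR was left out, as did the share of all tested genes called. With the block it was 18, where 18.6% of all tested genes were lower. In HER2R against MKN45, 1 of the 21 was higher and 2 were lower, beside 9.74% of all tested genes called. In CEAR against MKN45, 1 was higher and 0 were lower, beside 6.19%. With the block 1 was higher and 9 lower in HER2R (33.7% of all called), and 9 higher and 0 lower in CEAR (25.8%). SOX2 had no tested gene around it.

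RefSeq promoters matched 31 of the 49 members by symbol. The 250 bases before each start were searched on both strands, and for the TATA box on the forward strand alone. The CDX motif TTTATNG was found in 8 of the 31 and in 8.93% of the 35116 promoters of all genes. The GATA motif AGATAA was found in 6 members and 9.17% of all promoters. The TATA box, searched as TATAAA, was found in 10 members and 6.8% of all promoters. For the HNF4 motif CAAAGTCC the values were 1 and 1.02%, and for the SOX motif ACAATG 2 and 9.29%. For the FOXA motif TGTTTAC they were 2 and 2.98%, and for the KLF motif CCCCACCC 2 and 10.4%. The CDX motif on the other strand overlapped the TATA box before FABP1, AGR3, FOXA3 and KLF5. CDX matches lay before REG4, FABP1, MUC2, CDX2, ANXA10, AGR3, KLF5 and FOXA3. A match is a stretch of letters and not a bound site.

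Other genes of these programmes were counted from separate lists. Of 15 tested other gastric genes 0 rose and 1 fell in HER2R and 1 rose and 0 fell in CEAR (1 rose and 3 fell, and 4 rose and 0 fell, with the block). Between the derivatives 0 were higher and 4 lower in HER2R (2 and 7 with the block). Over all tested genes 9.74% (HER2R), 6.19% (CEAR) and 14.1% (between the derivatives) were called, and 33.7%, 25.8% and 38.2% with the block. CLDN18, above, was the rise in CEAR. DPCR1, a mucin-like gene, had 3.37 and 14.9 CPM (MKN45), 0 and 0.1275 (HER2R) and 15.2 and 14.8 (CEAR), with both HER2R libraries below all others (log2 fold change -7.09, edgeR adjusted p = 0.0151). The call of DPCR1 against MKN45 was lost without HER2R library 1 (0.1415, log2 fold change -6.12) or HER2R library 2 (0.119, log2 fold change -11.68). The same held with limma-voom (0.0910). For DPCR1 in HER2R against MKN45 the log2 fold change was -7.80 without MKN45 library 1 and -5.67 without MKN45 library 2, with the call kept. DPCR1 was also lower in HER2R than in CEAR (log2 fold change -7.82, edgeR adjusted p = 0.0102). The call of DPCR1 against CEAR was lost without HER2R library 1 (0.0953, log2 fold change -6.85) or HER2R library 2 (0.0939, log2 fold change -12.40). So it was with limma-voom (0.0538). The other 2 genes lower in HER2R than in CEAR, beside CLDN18 and DPCR1, were KCNE2 (log2 fold change -4.67, edgeR adjusted p = 0.0481), under 1 CPM in each line, and ONECUT2. The call of KCNE2 was lost without HER2R library 1 (0.182, log2 fold change -8.02), HER2R library 2 (0.256, log2 fold change -3.74), CEAR library 1 (0.0587) or CEAR library 2 (0.203, log2 fold change -3.78). Other settings that ended it were no filter on low counts (0.0629), DESeq2 (0.0677), limma-voom (0.0861) and edgeR's legacy method (0.0936). ONECUT2, a homeobox factor, was lower in HER2R than in CEAR (log2 fold change -1.03, edgeR adjusted p = 0.0207). The call of ONECUT2 was lost without HER2R library 1 (0.122), HER2R library 2 (0.105), CEAR library 1 (0.0679) or CEAR library 2 (0.0941).

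Of 19 tested other intestinal genes 0 rose and 4 fell in HER2R and 1 rose and 1 fell in CEAR (2 rose and 14 fell, and 4 rose and 10 fell, with the block). Between the derivatives 0 were higher and 1 lower in HER2R (3 and 9 with the block). Across all tested genes 9.74% (HER2R), 6.19% (CEAR) and 14.1% (between the derivatives) were called, and 33.7%, 25.8% and 38.2% with the block. In HER2R 4.85% of all tested genes fell, and 17.5% with the block. The brush border myosin gene MYO1A had 18.05 and 43.6 CPM (MKN45), 0.713 and 1.10 (HER2R) and 0.747 and 9.235 (CEAR) and fell in HER2R (log2 fold change -5.08, edgeR adjusted p = 0.0404). The call of MYO1A was lost without MKN45 library 1 (0.0612), MKN45 library 2 (0.108, log2 fold change -4.32), HER2R library 1 (0.2085) or HER2R library 2 (0.1875). It was also lost with no filter on low counts (0.0573) and limma-voom (0.0762). MYO7B, another such myosin gene, had 13.2 and 24.4 CPM (MKN45), 0.382 and 0.638 (HER2R) and 0.1445 and 1.775 (CEAR) and fell in both derivatives (log2 fold change -5.19, edgeR adjusted p = 0.0175 in HER2R and log2 fold change -4.26, edgeR adjusted p = 0.0264 in CEAR). The call of MYO7B in HER2R was lost without MKN45 library 2 (0.0553), HER2R library 1 (0.134) or HER2R library 2 (0.119). That in CEAR was lost without MKN45 library 2 (0.08205), HER2R library 1 (0.06785) or HER2R library 2 (0.0687). The same held with a fit of the 2 lines alone (0.0713) and edgeR's legacy method (0.0560). For MYO7B in CEAR against MKN45 the log2 fold change was -3.40 without CEAR library 1 and -6.99 without CEAR library 2, with the call kept. APOBEC1, the partner of A1CF, had 1.17 and 4.93 CPM (MKN45), 0 and 0.0255 (HER2R) and 0.1445 and 0.3595 (CEAR) (edgeR adjusted p = 0.0307 in HER2R and 0.0702 in CEAR, the second 0.000538 with the block). With the block APOBEC1 was also lower in HER2R than in CEAR (edgeR adjusted p = 0.03525). The call of APOBEC1 in HER2R was lost without HER2R library 1 (0.183) or HER2R library 2 (0.1645). So it was with limma-voom (0.0565). Every derivative library lay below both MKN45 libraries for MYO1A, MYO7B and APOBEC1.

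ASCL2, a factor of intestinal stem cells, fell in HER2R (log2 fold change -1.92, edgeR adjusted p = 0.0252). The call of ASCL2 was lost without MKN45 library 2 (0.0817), HER2R library 1 (0.155) or HER2R library 2 (0.135). SMOC2, of crypt bases, rose in CEAR (log2 fold change 2.99, edgeR adjusted p = 0.03765). The rise of SMOC2 was lost without any 1 of the 6 libraries, namely MKN45 library 1 (0.139), MKN45 library 2 (0.08825, log2 fold change 3.69), HER2R library 1 (0.0646), HER2R library 2 (0.0648), CEAR library 1 (0.130) or CEAR library 2 (0.08425). Other settings that ended it were no filter on low counts (0.05565), a fit of the 2 lines alone (0.0641) and edgeR's legacy method (0.0544). CREB3L3, a factor of lipid metabolism, was lower in HER2R than in CEAR (log2 fold change -2.34, edgeR adjusted p = 0.0221). The call of CREB3L3 was lost without HER2R library 1 (0.1225), HER2R library 2 (0.123) or CEAR library 2 (0.0825).

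Of 17 tested epithelial genes 0 rose and 0 fell in HER2R in edgeR (7 passed an unadjusted p under 0.05), and 0 rose and 1 fell in CEAR, the claudin CLDN3 (log2 fold change -1.52, edgeR adjusted p = 0.00608), which was called in all 14 alternatives. With the block 1 rose and 7 fell in HER2R, and 0 rose and 7 fell in CEAR. Among all tested genes 9.74% (HER2R), 6.19% (CEAR) and 14.1% (between the derivatives) were called, and 33.7%, 25.8% and 38.2% with the block. An unadjusted p under 0.05 in HER2R, without the block, was reached by 4280 of 14958 tested genes. Between the derivatives 2 epithelial genes were higher in HER2R and 0 lower (5 and 3 with the block), the adhesion molecule gene EPCAM (log2 fold change 0.79, edgeR adjusted p = 0.0327) and CLDN3 (log2 fold change 0.93, edgeR adjusted p = 0.0167). The call of EPCAM was lost without HER2R library 1 (0.109), HER2R library 2 (0.168), CEAR library 1 (0.154) or CEAR library 2 (0.1345). The call of CLDN3 between the derivatives was lost without HER2R library 1 (0.105), HER2R library 2 (0.0835), CEAR library 1 (0.0548) or CEAR library 2 (0.0910). The summed level of 9 enteroendocrine markers was 21.7 to 22.0 CPM in MKN45, 22.0 to 26.4 in HER2R and 32.2 to 36.3 in CEAR. Of the 5 tested, 1 was higher and 1 lower in HER2R than in CEAR (2 and 1 with the block). The higher gene was SCG5, with 0.0632 ± 0.0393 CPM in MKN45, 0.293 ± 0.0538 in HER2R and 0.0353 ± 0.0182 in CEAR (SD, n = 2; log2 fold change 2.97, edgeR adjusted p = 0.04255). The call of SCG5 was lost without any 1 of the 6 libraries, namely MKN45 library 1 (0.0561), MKN45 library 2 (0.0592), HER2R library 1 (0.173), HER2R library 2 (0.142), CEAR library 1 (0.177) or CEAR library 2 (0.2675). It was also lost with no filter on low counts (0.0557), DESeq2 (0.161), limma-voom (0.0724) and edgeR's legacy method (0.0749). In a fit of HER2R and CEAR alone SCG5 did not pass the filter on low counts. KCNE2 and SCG5, both under 1 CPM, are named outside the naming rule and after their values were seen, as are GEM and the other genes around members. The lower gene was INSM1, a factor of endocrine differentiation (log2 fold change -2.01, edgeR adjusted p = 0.0219). The call of INSM1 was lost without HER2R library 2 (0.0939), CEAR library 1 (0.0756) or CEAR library 2 (0.0583). For INSM1 in HER2R against CEAR the log2 fold change was -2.65 without HER2R library 1, with the call kept.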

How the data were processed

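RNA-seq counts of 6 libraries, 2 for each of 3 lines, were used. The authors deposited whole-number read counts per gene symbol, not normalized. Per the labels' protocols the libraries were made from total RNA with ribosomal RNA depletion. The submitters' processing notes name GRCh38 and limma without version or role, and for the aligner, annotation and counting rule the sources used here give nothing. All per-sample columns were used (0 left out).

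Counts were analysed in R 4.3.3 with edgeR 4.0.16: filterByExpr by line, TMM factors, and the quasi-likelihood test (glmQLFit, glmQLFTest) with line as the factor over all 6 libraries (residual df 3, prior df 3.51). P-values were adjusted by Benjamini-Hochberg over all 14958 tested genes, with calls at 0.05, so an adjusted p names this test unless another is given. The SE of a log2 fold change was back-calculated as its absolute value divided by the square root of the F statistic of this test. It is not an estimate from the fit itself, and it is unreliable for genes with a line at 0 counts. The filter removed 14786 of 29744 symbols. The legacy form of this test was run first. After its results were seen it was replaced by the current form, which is the reported one, and kept as an alternative. The other alternatives were the library number as a block, RLE factors, no filter, DESeq2 1.42.0, limma-voom (limma 3.58.1), fits of 2 lines, other classes for 7 members, each library left out, and, added after the data were seen, 5 abundant noncoding RNAs left out.

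All 49 members are named. Values in every library are given for members called, for mucins and trefoil factors and for the main regulators. From the other lists (other gastric, other intestinal, epithelial, stromal, immune and enteroendocrine genes; 116 of 117 symbols matched) called genes are named, up to 4 per direction and comparison by log2 fold change with a mean of 1 CPM or more. Members and lists were chosen with earlier results of these data known.

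Same-numbered libraries deviated together: the differences of number 2 minus number 1 correlated across 14958 genes at 0.378 (MKN45 and HER2R), 0.545 (MKN45 and CEAR) and 0.355 (HER2R and CEAR). The numbers were therefore taken to pair libraries, on this evidence and not from the labels. The libraries of a line were not duplicates (chi-square per degree of freedom 133, 62.8 and 92.9). On simulated data for HER2R against MKN45 (14958 genes), 100 genes were changed 2-fold and 100 were changed 4-fold. Of the true 2-fold changes 26% were called, and of the true 4-fold ones 74%, with 12.3% false among all calls. That false share lay above the level set by the calling threshold of 0.05. The adjusted p may therefore understate the share of false calls. These shares describe the simulated data alone.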

Additional observations from a re-analysis of the deposited data

Results flagged for a closer look

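In 6 members the derivatives lay on opposite sides of MKN45 by their fitted log2 fold change, and HER2R differed from CEAR in the edgeR test, which is the test of the difference between both changes. SOX2 differed by 4.36 (edgeR adjusted p = 0.00292), with 1.30 in HER2R and -3.05 in CEAR against MKN45. GATA4 differed by -1.44 (edgeR adjusted p = 0.00699), with -0.46 in HER2R and 0.98 in CEAR against MKN45. MUC5AC differed by -7.07 (edgeR adjusted p = 0.0464), with -4.63 in HER2R and 2.44 in CEAR against MKN45. ANXA10 differed by -1.02 (edgeR adjusted p = 0.0358), with -0.97 in HER2R and 0.05 (SE 0.227) in CEAR against MKN45. Its CEAR and MKN45 libraries overlapped, so the side of CEAR was not settled. A4GNT differed by -10.06 (edgeR adjusted p = 0.0255), with -5.18 in HER2R and 4.88 in CEAR against MKN45. MUC6 differed by -7.75 (edgeR adjusted p = 0.0319), with -3.01 (SE 3.47) in HER2R and 4.74 in CEAR against MKN45. With 0 counts in HER2R and 2 in MKN45, the side of HER2R was not settled for MUC6. The fitted values of A4GNT and MUC6 depend on the prior count, since HER2R had no count. Both genes passed the filter on low counts through CEAR alone, where they were highest, so their tests were tied to that level. Without the replicate block, SOX2 of the 6 was called against MKN45 in both derivatives. GATA4 and A4GNT were called in CEAR alone, ANXA10 in HER2R alone, and MUC5AC and MUC6 in neither. With the block GATA4 and MUC5AC were called in both derivatives (edgeR adjusted p = 0.0190 for GATA4 and 0.00146 for MUC5AC in HER2R) and MUC6 in CEAR (0.00777).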

How the results depend on the processing

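Over 1575 values of members under alternatives, 1333 kept their direction and their side of the threshold, 113 lost a call (90 of them with a library left out), 73 gained one (47 with the replicate block) and 56 changed sign, of which 0 were called in either fit. Members called numbered 23, 25 and 25 with the replicate block (HER2R with MKN45, CEAR with MKN45 and both derivatives compared, in that order), and 7, 8 and 11 without it. DESeq2 called 11 in HER2R against MKN45, beside 18.9% of all tested genes (9.74% in edgeR), and a fit of only the libraries of the 2 lines called 3 in CEAR against MKN45, beside 2.76% (6.19% in the fit of all lines). With 1 library left out the counts ran from 0 to 7, 2 to 6 and 1 to 11, where a lone library is assumed to vary like the other lines. The count by library number ran from 17 to 24. The cause of these differences was not tested. The legacy quasi-likelihood method of edgeR, run first and replaced after its results were seen, called 5, 8 and 10 members, all among those reported, and did not call ANXA10 and SOX2 in HER2R against MKN45 or MUC5AC in HER2R against CEAR.

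The gastric minus intestinal median was 0.228 in limma-voom for HER2R against MKN45, and ran from -0.933 to 1.05 with a library left out. For CEAR against MKN45 it was 1.54 with no filter and 1.06 with 7 members in another class, and ran from 2.09 to 3.95. For HER2R against CEAR it was -1.34, -0.774 and -2.99 to -1.87. Single members that changed sign, none called, were GATA6 in HER2R against MKN45 with no filter (-0.00978) and MUC1 in HER2R against CEAR with the block (0.0719) and limma-voom (0.0729). With a library left out, uncalled log2 fold changes ran across 0 in HER2R against MKN45 for FOXA1 (-0.190 to 0.0423), FOXA2 (-0.3355 to 0.246), FOXA3 (-0.0138 to 0.332), GATA6 (-0.0663 to 0.0699), KRT7 (-0.718 to 0.695), MUC6 (-4.01 to 0), OLFM4 (-5.47 to 0.749), PSCA (-2.59 to 0.294), REG4 (-1.30 to 0.137), SPINK1 (-1.97 to 1.71), TFF1 (-3.66 to 1.87), TFF2 (-5.875 to 1.04), TSPAN8 (-1.105 to 0.177) and VSIG1 (-0.143 to 1.63). In CEAR against MKN45 they did for ANXA10 (-0.205 to 0.273), CTSE (-0.466 to 1.01), FOXA3 (-0.309 to 0.0350), KRT7 (-0.488 to 0.871), LGALS4 (-1.10 to 0.254), LYZ (-0.296 to 0.231), MUC5B (-3.285 to 2.88), SPINK1 (-0.377 to 2.66), TFF1 (-4.15 to 0.885), TFF3 (-0.479 to 0.578) and TSPAN8 (-0.0854 to 1.34). In HER2R against CEAR they did for AGR2 (-0.331 to 0.622), CDX2 (-0.7015 to 0.648), KLF4 (-0.0558 to 0.466), KRT7 (-0.751 to 0.281), LGALS4 (-1.095 to 0.2605), MUC1 (-0.520 to 0.730), PHGR1 (-2.23 to 0.2005), REG4 (-0.175 to 1.12), TFF1 (-1.36 to 2.84) and VSIG1 (-1.07 to 0.519). Depth limits the untested members, where 1 count was worth up to 0.0255 CPM.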
